A study of Homo sapiens with 9 samples.

Results

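The 48 genes described here copy DNA or decide when a cell starts to copy it. They were listed by name as replication licensing, replication fork, deoxynucleotide synthesis and G1/S genes and were matched by symbol to the Ensembl IDs of the count files. All 48 of 48 symbols were found among 60880 gene IDs.

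The libraries came from SNU5, an established human gastric carcinoma line grown as cultured cells. The cells were exposed for 24 h to gold nanorods joined through polyethylene glycol to ramucirumab (AuNR-PEG-Ab, the NR group), to gold nanospheres carrying the same antibody (AuSP-PEG-Ab, the SP group), or to ramucirumab alone (the Ab group). Ramucirumab is an antibody against the receptor VEGFR2, and its concentration was 8 μg/mL in all 3 groups. RNA was sequenced in 3 libraries per group, 9 in all, with totals of 13863155 to 25735410 counts per NR library, 20601906 to 22914759 per SP library and 19566064 to 26318227 per Ab library. All groups received antibody, only 1 line was sequenced, and neither untreated cells nor bare gold particles were among the libraries, so Ab was the reference group. The labels number the libraries without saying that they came from separate cultures, and p-values then measure only the spread between these libraries, which may be technical. The study's text calls them biological replications, and its reporting summary says that work in culture was repeated independently, without tying libraries to cultures.

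In G1 phase, the origin recognition complex, CDC6 and CDT1 load the MCM2-7 ring onto DNA, which licenses an origin of replication. Cyclin E and CDK2, together with the CDC45 and GINS factors, turn that ring into a moving helicase, and polymerases, the PCNA clamp and its loader then copy both strands from deoxynucleotides made by ribonucleotide reductase and thymidylate synthase. Many of these genes are switched on at the G1/S border by E2F transcription factors, which the retinoblastoma protein holds back until cyclin D and CDK4 release them.

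The stretches below show the letters by which E2F factors are usually recognised, in 7 members that moved in both directions against Ab. They are RefSeq sequence of the GRCh38.p14 build, 80 bases long, printed 5′ to 3′ on the gene's strand, which is the minus strand for all 7. Capitals mark matches on either strand to TTTCGCGC, TTTGGCGC, TTTCCCGC or TTTGCCGC. These words can overlap one another, as they do in MCM6. The first 4 genes rose in NR and SP and the last 3 fell.
MCM6, helicase ring subunit, chr2:135876536-135876615: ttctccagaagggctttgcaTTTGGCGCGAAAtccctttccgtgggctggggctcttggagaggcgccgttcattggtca
MCM3, helicase ring subunit, chr6:52284857-52284936: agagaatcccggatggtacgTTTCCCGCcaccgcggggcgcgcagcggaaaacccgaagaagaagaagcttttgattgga
PCNA, sliding clamp, chr20:5126623-5126702: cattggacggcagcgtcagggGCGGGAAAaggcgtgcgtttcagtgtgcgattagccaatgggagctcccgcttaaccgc
GINS2, helicase cofactor, chr16:85688955-85689034: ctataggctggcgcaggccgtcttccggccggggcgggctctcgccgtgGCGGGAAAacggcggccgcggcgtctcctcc
E2F1, transcription factor, chr20:33686386-33686465: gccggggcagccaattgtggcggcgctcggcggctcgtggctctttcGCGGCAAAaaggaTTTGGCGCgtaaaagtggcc
MCM7, helicase ring subunit, chr7:100101525-100101604: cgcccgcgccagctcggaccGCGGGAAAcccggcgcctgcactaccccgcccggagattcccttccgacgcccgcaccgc
CDC25A, phosphatase that activates CDK2, chr3:48188418-48188497: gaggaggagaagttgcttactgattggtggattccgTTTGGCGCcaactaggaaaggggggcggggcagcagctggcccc

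Windows of 300 bases, 250 before to 50 after the start, were held for 39 of the 48 members. One of the 4 E2F words was present in 21 of these 39 (53.8%), against 3.99% of the 27305 genes with a window. CCAAT on either strand, the word read by NF-Y, was present in 24 members (61.5%), against 39.7% of all genes. By direction, an E2F word stood in 13 of 25 members higher in both nanoparticle groups, in 5 of 7 members lower in both and in 3 of the 7 others. The printed genes were all chosen from members with such a word. No E2F word stood in the windows of TK1, RRM1, CCNE1, RPA1 and ORC1, which rose, or of ORC6 and RFC4, which fell. TYMS and GINS1, which also rose, had 1 each. These are matches of letters only, and no binding was measured in these cells.

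Before the results, the label of the cells was set beside marker genes. Of the epithelial markers, KRT8, KRT18 and ELF3 were expressed in every library, with Ab means of 372, 264 and 32.8 TPM. Their means were 998, 366 and 60.4 TPM in NR and 1057, 361 and 63.0 TPM in SP. CLDN4 had means of 37.7 TPM in NR, 38.3 TPM in SP and 38.0 TPM in Ab. EPCAM and CDH1 were low in Ab (2.38 to 2.72 TPM and 0.125 to 0.280 TPM) and higher in every particle library (5.94 to 9.30 TPM and 3.32 to 4.33 TPM). KRT19 and CLDN3 had at most 2 counts in any library. LUM, a fibroblast gene, was at 50.6 to 53.9 TPM in all particle libraries and at 1.34 to 1.41 TPM in all Ab libraries. The fibroblast genes DCN and PDGFRB were also higher in every particle library, but the collagen gene COL1A2 had its highest values in Ab (0.576 to 3.90 TPM, against 0 to 0.477 TPM in NR and 0.703 to 0.767 TPM in SP), and COL3A1 overlapped between all groups. KDR, the gene of the receptor that ramucirumab binds, had 0 counts in 8 libraries and 1 count in the remaining NR library. Whether the Ab libraries came from the same cells as the particle libraries was not tested, and in this design such a difference and the treatment cannot be told apart, which bears on every change against Ab given below.

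All members were expressed. The lowest count of any member in any library was 152, and all 48 passed the filter on low counts in every comparison. In TPM, a level that scales counts for the exon length of each gene and then to the same total in every library, the means over the 9 libraries ran from 3.76 for POLA2, the second subunit of polymerase α, to 733 for PCNA, with a median of 77.5. After PCNA the order was MCM3 (407 TPM), the flap nuclease FEN1 (379 TPM), the large ribonucleotide reductase subunit RRM1 (355 TPM) and MCM7 (339 TPM). That order depended on the group. In Ab, MCM7 stood second with 401 ± 11.3 TPM (SD, n = 3) and RRM1 stood at 191 ± 14.2 TPM. In NR, RRM1 reached 440 ± 8.14 TPM and its libraries overlapped those of MCM3 at 449 ± 5.70 TPM, and MCM7 stood at 315 ± 6.78 TPM. For 13 members, more than 10% of the exon bases lie in another annotated gene as well, most of all TYMS (47.9%), CDK4 (44.2%) and CCNE2 (37.1%). The strand setting of the counting is not given in the sources used here, so the values of these 13 are less certain.

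**Figure D1:**
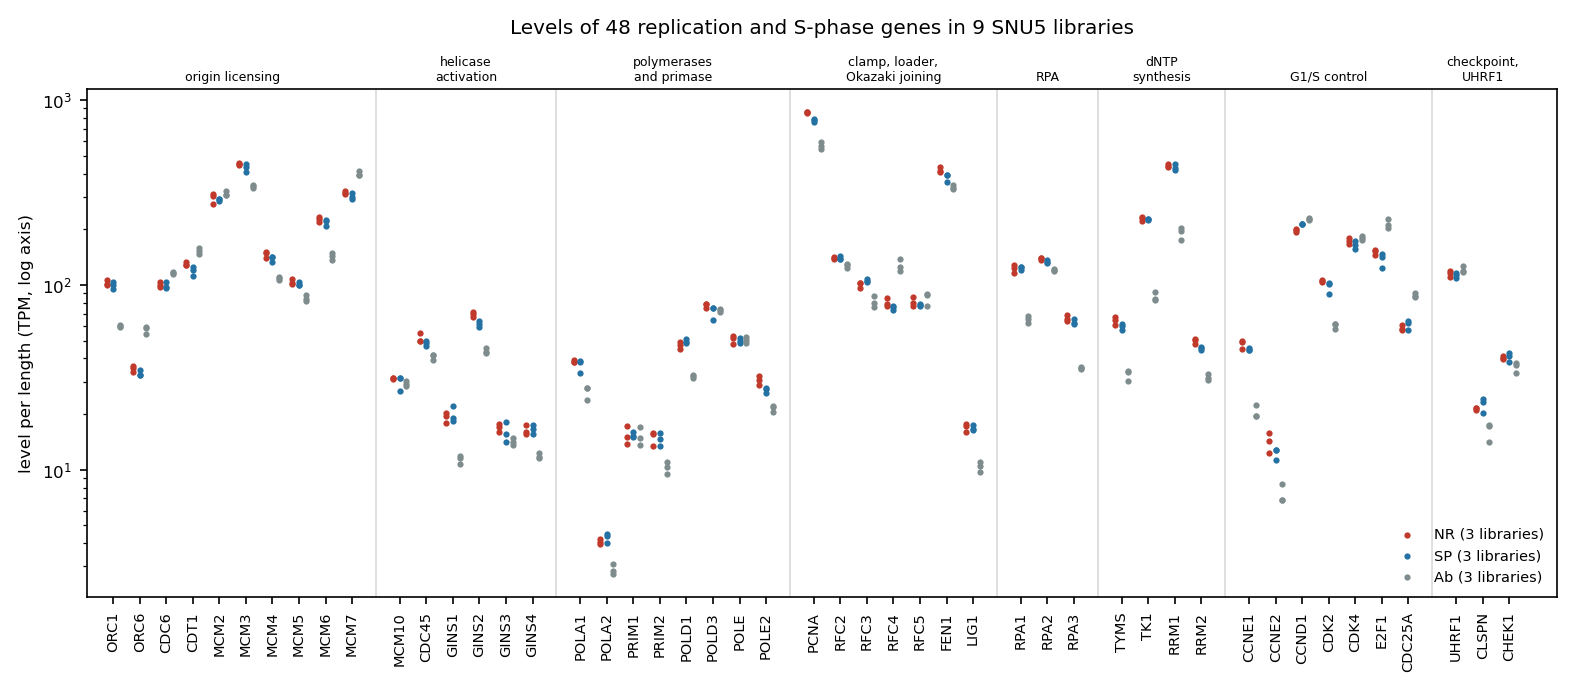
Level per length (TPM, log axis) of each of the 48 members in each of the 9 libraries, 3 points per group, ordered by role. Group differences were small beside the spread between genes, which ran from 3.76 TPM for POLA2 to 733 TPM for PCNA in the means of all libraries.

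Summed over the 48 members, the level was 6020, 6191 and 6126 TPM in the NR libraries, 5680, 5976 and 5899 TPM in the SP libraries and 5039, 5060 and 4961 TPM in the Ab libraries. All 6 nanoparticle libraries lay above all 3 Ab libraries, and the lowest NR library lay above the highest SP library. The ratio of the group means was 1.22 for NR to Ab, 1.17 for SP to Ab and 1.04 for NR to SP. In bulk RNA, more cells in S phase and more of this RNA per cell cannot be told apart. The sums by role did not all rise. Deoxynucleotide synthesis summed to 749 to 789 TPM in the particle libraries and 328 to 353 TPM in Ab. The helicase activation, polymerase, clamp and RPA groups were also higher in every particle library. G1/S control was lower in every particle library (705 to 755 TPM, against 779 to 812 TPM in Ab). Origin licensing and the fork checkpoint group overlapped between particle and Ab libraries.

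The question of the first comparisons was what either particle changed relative to free antibody. Most replication genes were higher with both particles. In NR against Ab, 35 members rose, 8 fell and 5 did not pass an adjusted p of 0.05 (edgeR's quasi-likelihood test, with p-values adjusted by Benjamini and Hochberg's method for every gene tested). Among all 15009 genes tested, 36.4% rose and 36.4% fell, so the share of members that rose (72.9%) was about double the background and the share that fell (16.7%) was under it. With total counts or the upper quartile as the scaling, 5 members fell in place of 8. In SP against Ab, 32 members rose, 7 fell and 9 did not pass, beside 36.4% and 36.6% of the 15068 genes tested. The median log2 fold change of the members was 0.46 in NR and 0.41 in SP, while that of all genes was -0.0055 and -0.0067. NR and SP were compared with the same 3 Ab libraries, so these values are given side by side and are not independent of each other.

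Most of these changes were under 2-fold. A rise of at least 2-fold was found for 6 members in NR (TK1, CCNE1, RRM1, TYMS, CCNE2 and RPA1; background 12.4%) and for 4 in SP (TK1, RRM1, CCNE1 and RPA1; background 12.6%). The share of members with such a rise was near that background in NR and under it in SP. No member fell 2-fold in either comparison, where 10.3% and 10.6% of all genes did. RPA1, TYMS and CCNE2 lay close to that line, and TYMS and CCNE2 are among the members named above for shared exon bases, whose values are less certain. With libraries scaled as in TPM, a setting added after the data were seen, 3 members remained past it in NR.

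**Figure D2:**
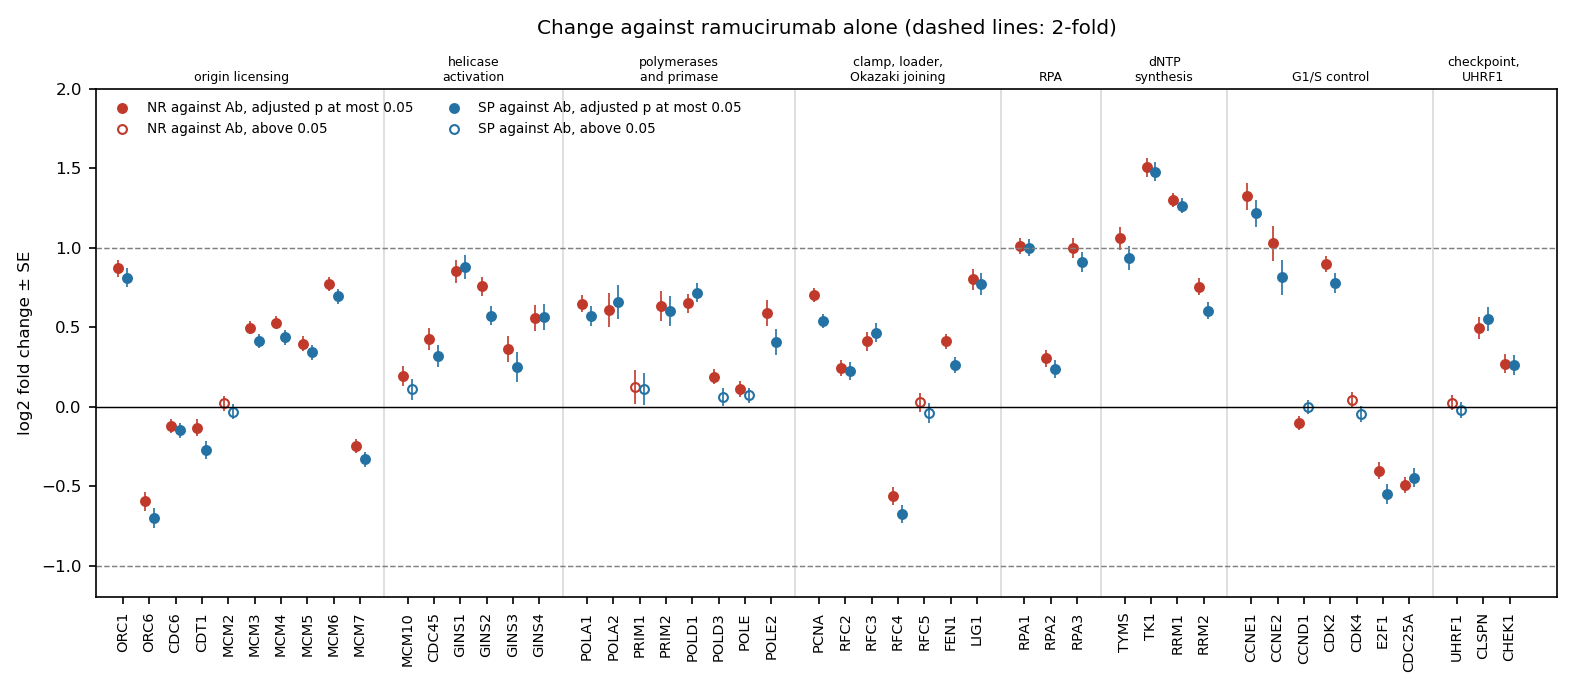
Log2 fold change ± SE of each member in NR (red) and SP (blue) against Ab from edgeR, 3 libraries per group; filled points have an adjusted p of at most 0.05 and dashed lines mark 2-fold. TK1, CCNE1, RRM1 and RPA1 are past the 2-fold line in both comparisons, and ORC6, RFC4, E2F1 and CDC25A lie lowest.

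**Figure D3:**
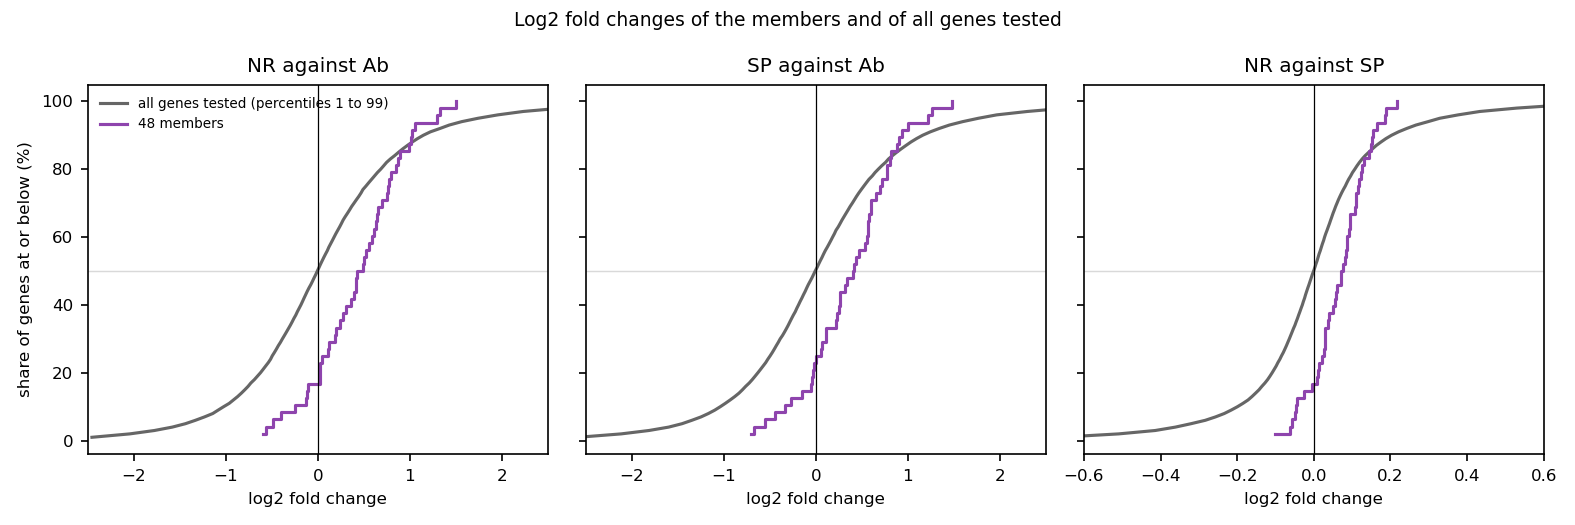
Share of genes (%) at or below each log2 fold change, for the 48 members (purple steps) and for all genes tested (grey, percentiles 1 to 99), in the 3 comparisons. The members' curve lies to the right of the grey curve at its middle, with medians of 0.46, 0.41 and 0.074, and it reaches neither tail of all genes.

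Origin licensing genes moved in both directions. Of 10, the same 5 rose and the same 4 fell in NR and in SP, shares near the 36.4% of all genes tested that rose and the 36.4% to 36.6% that fell, and MCM2 was called in neither, though it was called lower in SP with TPM scaling (edgeR adjusted p = 0.0161). Within the ring itself, MCM3, MCM4, MCM5 and MCM6 rose, MCM7 fell and MCM2 stood at 358 to 399 CPM in NR and 366 to 398 CPM in Ab. CPM are normalised read counts, scaled by TMM to a common library total and not for length, and are the unit of the per-library values of members below. MCM3 stood at 450, 453 and 445 CPM in NR, 402, 436 and 431 CPM in SP and 326, 319 and 313 CPM in Ab. All nanoparticle libraries were above all Ab libraries, with log2 fold changes of 0.50 (SE 0.04, edgeR adjusted p = 1.17e-11) in NR and 0.41 (SE 0.04, adjusted p = 3.1e-09) in SP.

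MCM7, in the same ring, went the other way. It stood at 425, 427 and 435 CPM in NR, 390, 414 and 407 CPM in SP and 536, 494 and 502 CPM in Ab, with no overlap between particle and Ab libraries. Its log2 fold change was -0.25 in NR and -0.33 in SP. The highest of the 6 ring genes was 4.76 times the lowest in Ab by TPM, and 4.34 times in NR.

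The listed subunits of the origin recognition complex, ORC1 and ORC6, moved in opposite directions. ORC1, its largest subunit, was measured at 86.7, 90.2 and 86.0 CPM in NR, 80.3, 86.4 and 85.0 CPM in SP and 49.6, 46.7 and 47.99 CPM in Ab. Its log2 fold change was 0.87 (SE 0.06, edgeR adjusted p = 3.86e-14) in NR and 0.81 in SP. ORC6, its smallest subunit, stood at 42.6, 39.8 and 42.9 CPM in NR, 40.4, 37.6 and 38.2 CPM in SP and 65.4, 64.4 and 60.2 CPM in Ab. It had the largest fall of any member, by 0.60 on the log2 scale in NR and by 0.70 in SP. The loaders CDC6 and CDT1 fell by less (-0.12 and -0.13 in NR, -0.15 and -0.27 in SP), and the calls of CDC6 in both comparisons and of CDT1 in NR were lost in some alternatives.

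Of the 6 helicase activation genes, all rose in NR and 5 in SP, where MCM10 was at 0.11 (SE 0.07) and did not pass. Of all genes tested, 36.4% rose in each comparison. The call of MCM10 in NR was lost with TPM scaling (edgeR adjusted p = 0.173). That of GINS3 in SP, whose libraries overlapped those of Ab, was lost with DESeq2, with TPM scaling and without SP3 (edgeR adjusted p = 0.163) or Ab2 (0.0602). GINS2, the most abundant of them per length, stood at 60.2, 62.4 and 60.8 CPM in NR, 55.6, 51.1 and 54.0 CPM in SP and 35.9, 36.9 and 35.8 CPM in Ab. The 3 groups did not overlap, and the log2 fold change was 0.76 (SE 0.06) in NR and 0.57 (SE 0.06) in SP. GINS1, another subunit of the same 4-part complex, stood at 40.0, 44.6 and 42.7 CPM in NR, 39.7, 47.4 and 41.7 CPM in SP and 22.6, 23.4 and 24.5 CPM in Ab. Its rise was 0.85 in NR and 0.88 in SP on the log2 scale. CDC45, GINS3 and GINS4 rose by 0.43, 0.36 and 0.56 in NR.

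Of the 8 polymerase and primase genes, 7 rose in NR and 5 in SP, and none fell. Among all genes tested, 36.4% rose in each comparison, and 36.4% fell in NR and 36.6% in SP. POLD1, the catalytic subunit of the lagging-strand polymerase δ, was measured at 61.4, 63.7 and 65.6 CPM in NR, 68.0, 64.3 and 66.4 CPM in SP and 41.5, 39.1 and 41.1 CPM in Ab. Its log2 fold change was 0.65 (SE 0.06, edgeR adjusted p = 1.09e-10) in NR and 0.72 (SE 0.06, adjusted p = 2.88e-11) in SP. POLD3, an accessory subunit of the same enzyme and the most abundant of the 8 per length, stood at 115, 118 and 117 CPM in NR, 96.4, 110 and 113 CPM in SP and 102, 102 and 103 CPM in Ab. NR lay above Ab (0.19, SE 0.05), while SP overlapped Ab (0.06, SE 0.06). POLE, the catalytic subunit of the leading-strand polymerase, passed in NR with a log2 fold change of 0.11 (edgeR adjusted p = 0.0463) although its libraries overlapped those of Ab, and the call was lost in 9 alternatives, 4 of them with 1 library left out (NR2, NR3, Ab2 or Ab3), with an edgeR adjusted p of up to 0.844. The call of POLD3 in NR was lost with TPM scaling (0.0959). The primase subunits differed, with PRIM2 at 0.63 and PRIM1 at 0.12 (SE 0.11, not called) in NR.

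Among the 7 genes of the clamp, its loader and Okazaki fragment joining, 5 rose and 1 fell in each comparison. The share of all genes tested was 36.4% for rises and 36.4% to 36.6% for falls. PCNA stood at 336, 330 and 325 CPM in NR, 288, 293 and 302 CPM in SP and 200, 209 and 202 CPM in Ab, with no overlap between any of the 3 groups. Its log2 fold change was 0.70 (SE 0.04, edgeR adjusted p = 1.75e-14) in NR and 0.54 (SE 0.04, adjusted p = 1.75e-11) in SP. LIG1, which seals Okazaki fragments, stood at 50.3, 54.9 and 53.5 CPM in NR, 51.1, 53.0 and 50.7 CPM in SP and 32.7, 27.9 and 30.7 CPM in Ab, a rise of 0.80 in NR and 0.77 in SP.

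The loader of the clamp was not raised as a unit. RFC4 stood at 70.3, 64.6 and 63.1 CPM in NR, 59.2, 61.8 and 61.9 CPM in SP and 92.6, 105 and 96.1 CPM in Ab. It fell by 0.56 (SE 0.06) in NR and by 0.68 (SE 0.06) in SP on the log2 scale, while RFC2 (0.24) and RFC3 (0.41) rose in NR and RFC5 (0.03, SE 0.06) was not called.

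All 3 subunits of RPA, which coats single-stranded DNA, rose in both comparisons, beside 36.4% of all genes tested in each. RPA1 was measured at 177, 191 and 185 CPM in NR, 186, 182 and 181 CPM in SP and 97.35, 86.4 and 92.5 CPM in Ab. Its log2 fold change was 1.009 (SE 0.05, edgeR adjusted p = 2.11e-16) in NR and 1.001 (SE 0.05) in SP. RPA2, the most abundant subunit per length, moved less, with 76.9, 73.5 and 75.0 CPM in NR, 70.4, 71.8 and 72.2 CPM in SP and 62.3, 59.2 and 61.8 CPM in Ab (log2 fold change 0.30 in NR and 0.24 in SP). RPA3 rose by 0.996 in NR and 0.91 in SP.

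Deoxynucleotide synthesis had the largest median of the 8 role groups against Ab, 1.18 in NR and 1.10 in SP. All 4 genes rose in both comparisons, beside 36.4% of all genes tested in each. TK1, the thymidine salvage kinase of S phase, stood at 113, 117 and 116 CPM in NR, 114, 111 and 115 CPM in SP and 44.1, 38.6 and 39.7 CPM in Ab. Its log2 fold change of 1.505 (SE 0.06, edgeR adjusted p = 3.63e-19) in NR and 1.48 (SE 0.06, adjusted p = 4.22e-18) in SP was the largest of any member. RRM1 stood at 507.5, 507.5 and 517 CPM in NR, 480.5, 510 and 499 CPM in SP and 194, 218 and 211 CPM in Ab, a rise of 1.30 (SE 0.05) and 1.26 (SE 0.05).

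RRM2, the S-phase subunit that pairs with RRM1, rose by less: 128, 128 and 120 CPM in NR, 112, 113 and 112 CPM in SP and 73.5, 76.0 and 73.7 CPM in Ab gave log2 fold changes of 0.76 and 0.60. TYMS, thymidylate synthase, rose by 1.06 in NR and 0.93 in SP.

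In G1/S control, 3 of 7 genes rose and 3 fell in NR, and 3 rose and 2 fell in SP, beside 36.4% of all genes that rose and 36.4% to 36.6% that fell, so these few genes did not stand out by their counts. The genes that rose were the cyclin E genes and their kinase CDK2 (0.90 in NR and 0.78 in SP). CCNE1 stood at 30.7, 33.5 and 32.8 CPM in NR, 30.4, 29.1 and 30.0 CPM in SP and 14.3, 12.2 and 12.3 CPM in Ab, with log2 fold changes of 1.32 (SE 0.08, edgeR adjusted p = 4.23e-14) and 1.22 (SE 0.08). CCNE2, lower in TPM, rose by 1.03 and 0.81.

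E2F1, the activating E2F factor of the list, fell. It stood at 115, 112 and 107 CPM in NR, 90.03, 102 and 109 CPM in SP and 159, 144 and 139 CPM in Ab, with no overlap with Ab and log2 fold changes of -0.40 (SE 0.05, edgeR adjusted p = 9.4e-08) and -0.55 (SE 0.07, adjusted p = 2.58e-07). CDC25A fell by 0.49 and 0.45 on the log2 scale.

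CCND1, cyclin D1, stood at 255, 259 and 255 CPM in NR, 276, 270 and 278 CPM in SP and 284, 272 and 273 CPM in Ab. NR lay below both other groups, with a log2 fold change of -0.10 (SE 0.04, edgeR adjusted p = 0.0304) against Ab, and SP overlapped Ab (-0.00092, SE 0.04). The call of CCND1 was lost in 4 alternatives, among them the fit without NR3 (edgeR adjusted p = 0.0569), total counts (0.0993) and the upper quartile (0.519). Its partner CDK4 was called in neither comparison, though it was called higher in NR with the upper quartile and lower in SP with TPM scaling.

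In the last group, UHRF1, which reads hemimethylated DNA behind the fork, was called in neither comparison. It stood at 157, 168 and 163 CPM in NR, 151, 159 and 160 CPM in SP and 170, 153 and 157 CPM in Ab. CLSPN, the mediator of the fork checkpoint kinase CHEK1, stood at 56.1, 56.5 and 56.3 CPM in NR, 52.3, 61.7 and 61.2 CPM in SP and 35.2, 41.9 and 42.8 CPM in Ab, and rose by 0.49 and 0.55. CHEK1 rose by 0.27 and 0.26.

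Other genes of the same processes were counted from lists written by hand. Of 41 other replication factors, 16 rose and 11 fell in NR (39.0% and 26.8%). In SP, 15 rose and 10 fell (36.6% and 24.4%). The shares that rose were near the 36.4% of all genes tested. Those that fell were under the 36.4% and 36.6% of all genes in NR and SP. The medians of 0.04 and 0.02 were close to those of all genes. RNASEH2C, a subunit of ribonuclease H2, had 17.9 to 18.4 CPM (here of the library total, as for the genes below) in Ab, against 59.1 to 60.3 CPM in NR and 61.7 to 68.1 CPM in SP, with log2 fold changes of 1.69 and 1.79, although 28.9% of its exon bases are shared with KAT5. The histone chaperone ASF1B rose by 1.04 and 0.91, and the topoisomerase TOP1 fell by 0.75 and 0.71.

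The 14 genes listed as other deoxynucleotide enzymes were all called, with 11 higher and 3 lower in both comparisons (78.6% and 21.4%) and medians of 0.48 and 0.48. That list is broad and also holds enzymes of general nucleotide synthesis, among them PAICS, GART, IMPDH2 and CTPS1. Of all genes tested, 36.4% rose in each comparison and 36.4% to 36.6% fell. PAICS, a purine synthesis enzyme, rose by 0.83 and 0.79. SAMHD1, which breaks deoxynucleotides down, rose by 1.47 in both.

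Of 28 other G1/S regulators tested, 12 rose and 13 fell in NR (42.9% and 46.4%) and 11 rose and 13 fell in SP (39.3% and 46.4%), beside about 36.4% of all genes in each direction, with medians of -0.01 and -0.07. CCND3, cyclin D3, rose by 1.73 and 1.81, the CDK4/6 inhibitor CDKN2C by 1.52 and 1.41, and SKP2, which marks the inhibitor p27 for degradation, by 0.92 and 0.88. The CDK inhibitors CDKN1A (p21) and CDKN1B (p27), named after their values were seen, fell: CDKN1A by 1.15 and 0.997, CDKN1B by 0.91 and 0.93 on the log2 scale. CDKN1A was at 85.5 to 97.6 CPM in NR, 101 to 104 CPM in SP and 189 to 213 CPM in Ab. CCND2 had 0 counts in every library, which allows up to 3 counts in each, and was not tested.

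Of 13 other fork checkpoint genes tested, 5 rose and 4 fell in NR (38.5% and 30.8%) and 6 rose and 5 fell in SP (46.2% and 38.5%), near the shares of all genes given above. FANCI, of the Fanconi anaemia repair pathway, rose by 0.53 and 0.51, and the checkpoint kinase CHEK2 by 0.58 and 0.51. Of the 36 mitosis genes, 24 rose and 1 fell in NR (66.7% and 2.78%). In SP, 25 rose and 2 fell (69.4% and 5.56%). Among all genes tested, 36.4% rose in each comparison and 36.4% to 36.6% fell. The medians of the mitosis genes were 0.39 and 0.40. KIF20A, a kinesin of cytokinesis, rose by 2.38 and 2.37, UBE2C by 0.78 and 0.80, and CCNB1, cyclin B1, by 0.69 and 0.74.

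**Figure D4:**
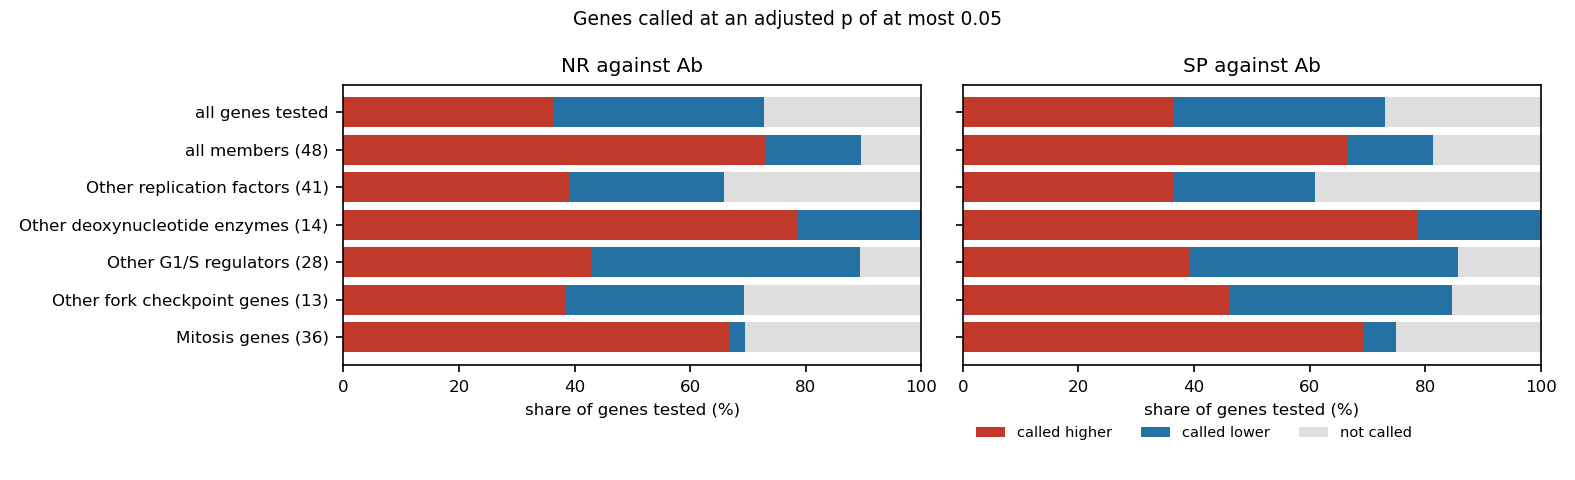
Share of tested genes (%) that edgeR called higher, called lower or did not call at an adjusted p of 0.05, for all genes, the 48 members and 5 related lists, in NR (left) and SP (right) against Ab; the number of genes is in brackets. The members, the list of other deoxynucleotide enzymes, which also holds enzymes of general nucleotide synthesis, and the mitosis genes have the largest shares called higher.

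Markers of other cell types moved between the same groups. Of 8 epithelial markers, KRT8 was the most abundant and the summed level was 1464 to 1481 TPM in NR, 1504 to 1571 TPM in SP and 697 to 731 TPM in Ab. EPCAM and CDH1 were low, as given above, and KRT19 and CLDN3 had at most 2 counts in any library. The 6 fibroblast markers summed to 77.3 to 80.01 TPM in NR, 81.2 to 85.8 TPM in SP and 8.75 to 20.4 TPM in Ab, and LUM was the most abundant in the particle groups. The 4 endothelial markers matched summed to 12.4 to 14.2 TPM in the particle groups and 2.29 to 3.31 TPM in Ab, nearly all of it CDH5. The 6 leukocyte markers summed to 2.06 to 4.46 TPM, with LYZ at 0 counts in every library and PTPRC, CD3E and CD68 at 2 or fewer. The share of counts in mitochondrial genes was 3.41% to 3.71% in Ab libraries, 4.36% to 4.59% in NR libraries and 4.40% to 4.66% in SP libraries. The part of these differences in the changes of the replication genes was not tested.

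The comparison of particle shapes asked whether a rod and a sphere with the same antibody differ. Few genes of any kind were called. Of 14903 genes tested, 0.262% were higher and 0.181% lower in NR than in SP at an adjusted p of 0.05 in edgeR. These 39 and 27 genes depended on single libraries: the counts were 89 and 55 without NR1, 4 and 6 without NR2, 17 and 6 without NR3, 7 and 4 without SP1, 11 and 7 without SP2 and 90 and 98 without SP3. With TPM scaling 14 were higher and 20 lower. Among the members 1 was higher, PCNA, and 0 were lower. At an unadjusted p under 0.05, 16 members were higher and 1 was lower in NR, beside 6.23% and 6.67% of all genes tested. DESeq2 called 2 members higher and 0 lower at its adjusted p, beside 1.77% and 1.89% of the 3909 genes to which it gave one.

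PCNA, whose values are given above, had a log2 fold change of 0.17 (SE 0.04, edgeR adjusted p = 0.0353) in NR against SP, with all 3 NR libraries above all 3 SP libraries. Leaving out 1 library at a time lost the call in 5 of 6 fits, with an edgeR adjusted p of up to 0.142 without NR2, and kept it without SP3. It was also lost with all 9 libraries in a single fit (edgeR adjusted p = 0.0693), with the replicate number as a block (0.0791) and with libraries scaled as in TPM (0.0715).

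The differences of the members were small and mostly of one sign. The log2 fold change of NR against SP ran from -0.10 (CCND1) to 0.22 (CCNE2), with 40 members above 0 and 8 below, and a median of 0.074 beside -0.00046 for all genes. All 3 NR libraries lay above all 3 SP libraries for 17 members (35.4%), against 8.72% of all genes tested, and below for 1 member (2.08%), against 9.17%. The median was 0.051 without SP1, the library with the lowest summed level, and at most 0.080 without any other library. By comparison, the median in NR against SP was -0.0085 for the 36 mitosis genes and 0.0077 for the other replication factors. It was 0.036 for the other deoxynucleotide enzymes, 0.037 for the other G1/S regulators and -0.0038 for the other fork checkpoint genes.

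The member with the next smallest p was FEN1, which cuts the flaps of Okazaki fragments. It stood at 251, 261 and 245 CPM in NR, 213, 229 and 237 CPM in SP and 200, 185 and 186 CPM in Ab. NR and SP did not overlap, with a log2 fold change of 0.15 (SE 0.04, edgeR adjusted p = 0.087). FEN1 was the other member called by DESeq2 (adjusted p = 0.0382), and edgeR called it with no filter (0.0311) and without SP3 (0.0376), but in no other alternative. RRM2 followed, at 0.15 (SE 0.04, adjusted p = 0.101), and GINS2 was at 0.19 (SE 0.05, adjusted p = 0.102). In the other direction CCND1 was at -0.10 (SE 0.04, adjusted p = 0.211), POLD1 at -0.06 (SE 0.05) and RFC3 at -0.05 (SE 0.05). RFC3 stood at 81.6, 79.5 and 74.8 CPM in NR, 80.05, 81.8 and 82.4 CPM in SP and 59.2, 62.7 and 55.8 CPM in Ab, so that NR and SP overlapped. TK1 and RRM1, which rose most against Ab with CCNE1, were at 0.03 (SE 0.04) and 0.04 (SE 0.04) between the shapes.

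**Figure D5:**
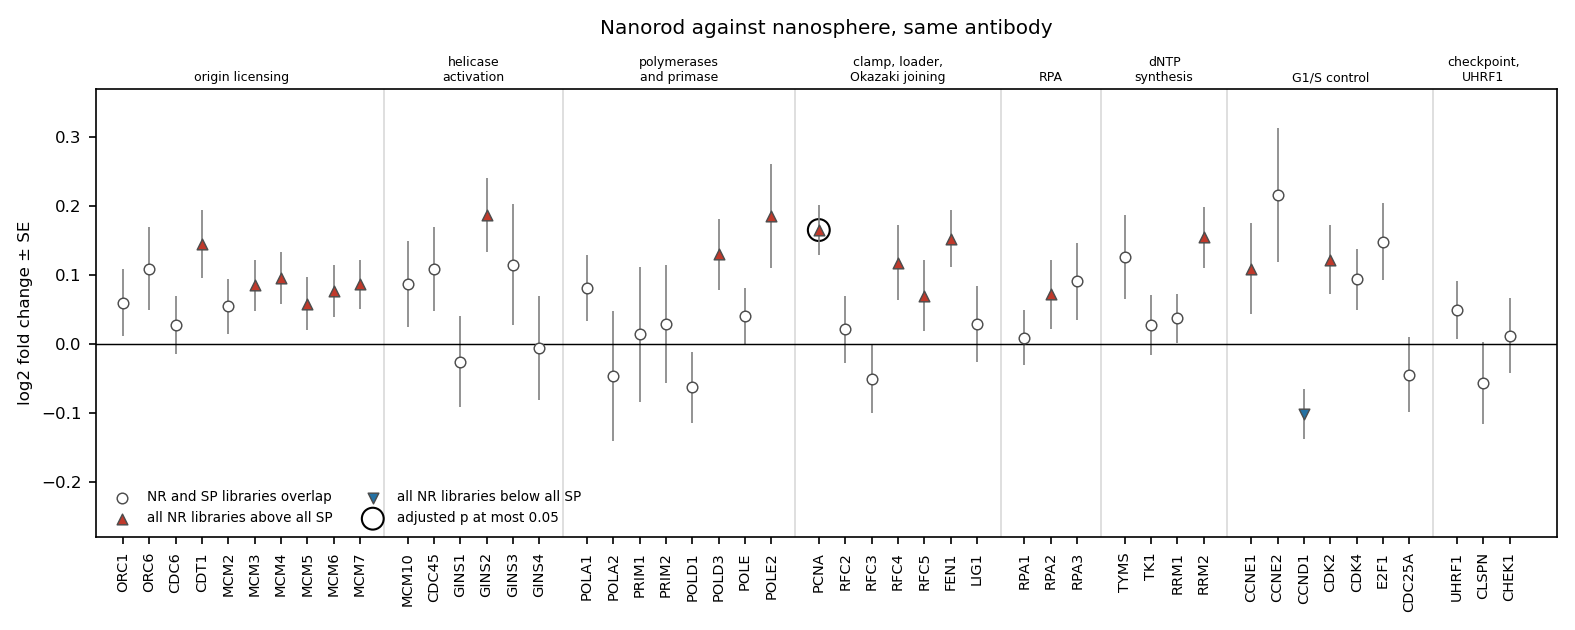
Log2 fold change ± SE of each member in NR against SP from edgeR, 3 libraries per group; triangles mark members whose NR and SP libraries do not overlap and the ring marks an adjusted p of at most 0.05. Of 48 members, 17 have all NR libraries above all SP libraries, 1 has them below, and PCNA alone has the ring.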

How the data were processed

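Per the study's methods, the authors filtered the reads for adapters, poly-N and low quality, mapped them with HISAT2 and counted them by gene, and the reporting summary names hg19 (GRCh37) as the genome. The submitters' processing notes list HISAT2 2.1.0, DESeq2 1.16.1 and, for these human gene IDs, the build mm9. The counting tool is named differently in the methods and in the reporting summary, and the annotation release and the strand setting are not given in the sources used here. The deposited values were raw counts per Ensembl gene in 3 files, with 60880 IDs, of which 10363 carried a version suffix that was removed. GENCODE 44 on GRCh37 gave names and exon lengths for 59858 IDs, and the other 1022 took no more than 0.115% of the counts of any library. Promoter sequences came from RefSeq (GRCh38.p14). No promoter entry was held for MCM4, MCM5, GINS4, POLD3, RPA2, RPA3, CCNE2, CCND1 and CDK2.

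The 6 libraries of each pair of groups were fitted with edgeR 4.0.16 in R 4.3.3, using TMM scaling, filterByExpr (minimum count 10, minimum total 15) and the quasi-likelihood test (robust), with p-values adjusted by Benjamini and Hochberg over the genes tested and a threshold of 0.05. Alternatives were DESeq2 1.42.0, other scalings and filters, a replicate block, one fit of all 9 libraries, a fold minimum of 1.5, removal of the trend with gene length and leaving out each library. TPM scaling was added after the data were seen. The steps were tested on simulated counts. Between replicates, the chi-square of the counts was 1.84 to 7.44 per gene, more than sampling noise gives, so none was taken for a repeat of another.

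The members and all lists were chosen with earlier results of these data known. Library values are given for the most abundant member of each role group, its largest rise and fall against Ab, and the members with an adjusted p of at most 0.05 or the 3 smallest p in each direction in NR against SP; values for other members were added for context. From each other list, the 3 genes with the smallest p in NR against Ab are named, except for some that are not reported here, and CDKN1A, CDKN1B and DUT were added. Of the marker genes, PECAM1 was not matched.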

Additional observations from a re-analysis of the deposited data

Results flagged for a closer look

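PCNA and DUT differed between the NR and SP groups in the direct test of one particle shape against the other. For PCNA the log2 fold change between the shapes was 0.165 (edgeR adjusted p = 0.0353), on top of rises of 0.70 and 0.54 against Ab. DUT, the dUTPase that keeps uracil out of DNA, is not among the 48 members but in the list of other deoxynucleotide enzymes. It stood at 181 to 190 CPM in NR, 157 to 166 CPM in SP and 123 to 132 CPM in Ab, a log2 difference between NR and SP of 0.194 (SE 0.04, edgeR adjusted p = 0.0256). Both had all 3 NR libraries above all 3 SP libraries, and with 1 library left out at a time both calls were kept in 1 of 6 fits, the one without SP3. With the replicate number as a block the edgeR adjusted p was 0.0791 for PCNA and 0.0577 for DUT, and with TPM scaling it was 0.0715 and 0.0589. With all 9 libraries in a single fit PCNA lost its call (0.0693) and DUT kept it (0.0490). In DUT 14.5% of exon bases are shared with DUT-AS1.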

How the results depend on the processing

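Against Ab, 37 of the 43 calls of members in NR and 37 of the 39 in SP held in every alternative that could be fitted, and no called member changed direction. CCND1, CDC6, CDT1, MCM10, POLD3 and POLE in NR, and CDC6 and GINS3 in SP, lost their call in at least 1. CDK4 in NR, and CDK4, MCM2, MCM10, POLD3 and POLE in SP, gained one in at least 1. Between 32 and 36 members rose in NR and between 31 and 35 in SP. At a fold minimum of 1.5, 20 rose and 1 fell in NR, and 16 rose and 2 fell in SP. With TPM scaling 3 members rose 2-fold in NR, and 5 members fell in NR with total counts or the upper quartile. The median of the members in NR was 0.486 with total counts, 0.533 with the upper quartile, 0.360 with TPM scaling and 0.437 with at least 10 counts in every library, and in SP it was 0.480 with the upper quartile and 0.328 with TPM scaling. TPM scaling moved the median of all genes to -0.106 in NR and -0.090 in SP, so that fold changes on that scale are lower by about as much. Under it all genes called higher and lower against Ab numbered 4734 and 6207 in NR, in place of 5457 and 5459, and 4876 and 6112 in SP, in place of 5492 and 5510.

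In NR against SP, 2 members, PCNA and FEN1, were called higher with DESeq2 and with no filter, and 0 with all 9 libraries in one fit, with TPM scaling and with the replicate number as a block. Leaving out 1 library gave 0 to 2 (0 without NR1, NR2, NR3, SP1 or SP2). All genes called higher and lower numbered 39 and 27, against 69 and 74 with DESeq2, 174 and 154 with no filter, 14 and 20 with TPM scaling and 33 and 15 with all 9 libraries in one fit. Libraries of the same number shared little, since their deviations had correlations of -0.032 to 0.028. This cannot show whether they were prepared together. With the block, 34 members rose and 7 fell in NR and 32 rose and 7 fell in SP against Ab.

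Changes of sign were found only for members without a call. In NR against Ab, MCM2 was at -0.00089 with at least 10 counts in every library, and with TPM scaling MCM2 was at -0.076, RFC5 at -0.073, CDK4 at -0.056 and UHRF1 at -0.073. Leaving out 1 library gave MCM2 -0.013 to 0.060, RFC5 -0.047 to 0.061, CDK4 -0.00036 to 0.069 and UHRF1 -0.0075 to 0.065. In SP against Ab, the upper quartile gave MCM2 0.038, RFC5 0.028, CCND1 0.068, CDK4 0.021 and UHRF1 0.047, TPM scaling gave POLD3 -0.022 and POLE -0.010, and total counts gave CCND1 0.025 and UHRF1 0.0033. CCND1 was at 0.0078 with DESeq2, 0.0019 with RLE size factors and 0.0062 with no filter. Leaving out 1 library gave CCND1 -0.016 to 0.015, MCM2 -0.058 to 0.0031 and UHRF1 -0.058 to 0.018. The cause of these changes was not tested. Every member had at least 152 counts in every library, and what depth or the number of libraries limits was not tested.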

Other observations

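The other E2F, DP and retinoblastoma family genes of the list of G1/S regulators are given here for NR and SP against Ab. This choice was made with their values in view. E2F2 rose by 0.48 and 0.43 on the log2 scale and E2F8, a late repressor of the family, by 0.59 and 0.48. E2F3 (-0.33 and -0.39), E2F4 (-0.92 and -0.91), E2F5 (-0.39 and -0.53) and E2F6 (-0.54 and -0.52) fell, and E2F7 was not called (0.09 and 0.01). Of the partners, TFDP1 was at 0.11 and 0.03 and called in NR, and TFDP2 fell (-0.36 and -0.36). Of the pocket proteins, RB1 rose by 0.28 and 0.23 and RBL2 by 0.80 and 0.80, while RBL1 fell by 0.33 and 0.29.

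Subunits of the complexes above that stand in the list of other replication factors were chosen in the same way. Of the origin recognition complex, ORC3 rose (0.20 and 0.30), ORC4 (-0.33 and -0.31) and ORC5 (-0.75 and -0.71) fell, and ORC2 was not called (-0.06 and -0.01). Of the polymerases, POLD2 rose (0.54 and 0.53), POLE3 fell (-0.14 and -0.18), and POLD4 (-0.62 and -0.26, SE 0.30 and 0.30) and POLE4 (0.04 and 0.06) were not called. The large clamp loader subunit RFC1 was not called (-0.06 and -0.06). Of the alternative loader, DSCC1 rose (0.92 and 0.74), CHTF8 fell (-0.23 and -0.25), and CHTF18 fell in NR (-0.19) and was not called in SP (-0.15). Of ribonuclease H2, RNASEH2C rose (1.69 and 1.79), RNASEH2B fell (-0.76 and -0.77) and RNASEH2A was not called (-0.02 and -0.46, SE 0.33 and 0.35).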
